A study of Mus musculus with 8 samples.

Results

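The transcription factors Six3, Isl1, Foxp1, Ebf1, Meis2 and Bcl11b direct the formation of striatal neurons, and they were examined here by their gene names. Of these 6 genes, 4 had a row among the 13996 genes of the values used here (Foxp1, Ebf1, Meis2 and Bcl11b), and Six3 and Isl1 were not analysed here. RNA sequencing was performed on the brain cortex of male C57BL/6 mice, 4 on a conventional diet (normal mice) and 4 on a diet with 60% fat by weight (high fat diet, HFD mice). Feeding began at 8 weeks of age and lasted 8 weeks, so the mice were 16 weeks old, and the labels name no transgene. Expression is given in FPKM, read fragments scaled to transcript length and sequencing depth, rounded to 0.1, so that read depth behind each value is unknown.

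The striatum arises from the lateral ganglionic eminence, an embryonic zone in which homeodomain, forkhead, EBF and zinc finger proteins act in sequence. Six3 and Isl1 are homeodomain factors that promote the neurons of the indirect and direct striatal pathways. Ebf1, a helix-loop-helix factor, acts in the maturation of direct pathway neurons, and it is also known from pericytes and B cells. Foxp1, a forkhead repressor, and Bcl11b (Ctip2), a zinc finger protein, are present in striatal projection neurons and also in projection neurons of the cortex. Meis2, a homeodomain factor of the TALE class, marks striatal neurons and interneurons of the same origin. Because the samples were bulk tissue, fewer cells of a type and less RNA per cell cannot be told apart.

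Among the 4 factors, Ebf1 was lower in HFD mice, and Foxp1, Meis2 and Bcl11b did not pass the test. Ebf1 reached a mean of 1 FPKM, the lower limit for testing, only in normal mice. The mean FPKM of Ebf1 was 2.25 ± 1.22 in normal mice and 0.75 ± 0.129 in HFD mice (SD, n = 4 per diet). Ebf1 was highest in normal mice 2 and 3, which also held the most RNA of cerebellar and thalamic marker genes. Without those mice its decrease was smaller (log2 fold change -0.62) and did not pass the test, in a fit with fewer mice. The 18 measured genes that serve the mature function of striatal neurons, a list chosen with their decrease known, were lower in HFD mice.

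Sequence before RefSeq starts of the 4 genes is shown to place the factors in the genome and to show motifs of their own protein families. Which start the measured transcripts used is not known from FPKM per gene. The sequences are from RefSeq on GRCm38.p6, written 5′ to 3′ on the strand of the gene, and cover only bases before a RefSeq start that lie in no exon of GENCODE M21. Capitals mark matches, on either strand, to a MEIS motif (TGACAG), a homeodomain core (TAATTA), a forkhead motif (GTAAACA) or an EBF palindrome (TCCC, any pair of bases, then GGGA).
Ebf1, chr11:44619978-44620227, plus strand, within the annotated gene: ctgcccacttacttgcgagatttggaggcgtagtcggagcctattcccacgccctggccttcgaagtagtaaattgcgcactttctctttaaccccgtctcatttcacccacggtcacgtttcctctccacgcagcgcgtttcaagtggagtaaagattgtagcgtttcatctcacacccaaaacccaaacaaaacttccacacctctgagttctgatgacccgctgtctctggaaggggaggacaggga
Meis2, chr2:116064722-116064801, minus strand, within the annotated gene: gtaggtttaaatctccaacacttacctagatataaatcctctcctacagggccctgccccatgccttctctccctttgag
Bcl11b, chr12:108003603-108003664, minus strand, just before the annotated gene: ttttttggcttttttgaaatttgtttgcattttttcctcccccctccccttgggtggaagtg
Foxp1, chr6:99521163-99521243, minus strand, within the annotated gene and nearest its start: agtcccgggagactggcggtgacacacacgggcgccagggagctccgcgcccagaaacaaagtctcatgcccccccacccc
Foxp1, chr6:99266533-99266765, minus strand, at a start far inside the gene: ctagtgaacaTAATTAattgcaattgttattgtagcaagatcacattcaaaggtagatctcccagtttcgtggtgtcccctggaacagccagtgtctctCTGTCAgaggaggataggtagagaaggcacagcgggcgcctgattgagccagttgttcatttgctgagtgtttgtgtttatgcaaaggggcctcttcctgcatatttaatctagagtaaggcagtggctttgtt
The second Foxp1 stretch holds 1 TAATTA and 1 match to the MEIS motif in reverse complement, and the other 4 stretches hold none of the motifs. A further Foxp1 window, which is not shown, holds none either. In the RefSeq windows of 300 bases around 32851 starts of all genes, 19.2% hold the MEIS motif, 5.29% the homeodomain core, 3.65% the forkhead motif and 0.904% the EBF palindrome. Ebf1 has another RefSeq start, whose window lies in an annotated exon and is not shown.

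Expression in each mouse was compared between the diets with limma on log2(FPKM + 0.1), two-sided, with p values adjusted by Benjamini and Hochberg across 13982 genes, those averaging 1 FPKM or more with no 0. All 4 factors were within this filter, Ebf1 only through its normal mice, since its mean in HFD mice was 0.75 FPKM. A gene below 1 FPKM in 1 diet enters only if it is higher in the other diet. A gene was counted as changed at an adjusted p below 0.05. Of all genes tested, 33.1% were changed, 15.3% lower and 17.7% higher in HFD mice, and of the 4 factors 1 was lower and 0 were higher. A decrease over 1.5 times at that threshold was met by 2.9% of all genes and by Ebf1 among the factors. The median log2 fold change was -0.076 over the 4 factors and 0.0031 over all genes tested. With 4 factors, 1 that changed cannot be set apart from the share among all genes.

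**Figure D1:**
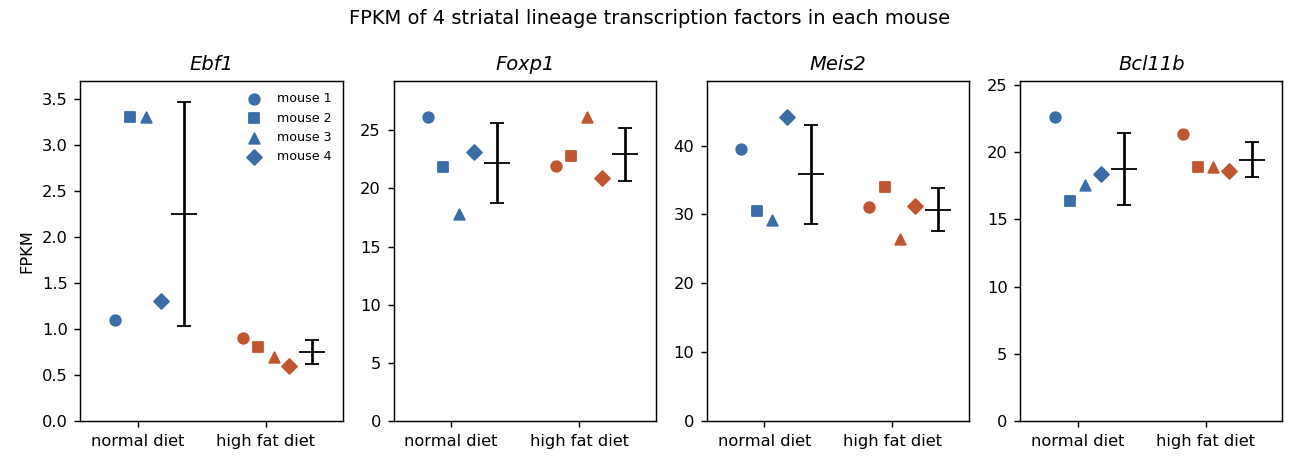
FPKM of Ebf1, Foxp1, Meis2 and Bcl11b (vertical axes, from 0) in the 4 normal mice and the 4 HFD mice, with 1 symbol per mouse and the mean ± SD beside them. Ebf1 was 3.3 in normal mice 2 and 3 and no more than 1.3 in the other 6 mice, and the values of the other factors overlapped between the diets.

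Ebf1 (ENSMUSG00000057098.14) spans 44617317 to 45008091 of chromosome 11 (GRCm38, plus strand). Its FPKM was 1.1, 3.3, 3.3 and 1.3 in normal mice 1 to 4 and 0.9, 0.8, 0.7 and 0.6 in HFD mice 1 to 4. Each normal mouse lay above each HFD mouse, but normal mice 1 and 4 were closer to the HFD mice than to normal mice 2 and 3. Values of the diets did not overlap in 31.9% of all genes tested, with 14.7% lower in HFD mice. Its log2 fold change, HFD over normal, was -1.32 (standard error, SE, 0.35, 95% interval -2.11 to -0.53, adjusted p = 0.0191 from limma). Ebf1 is a gene of low expression here, with a mean FPKM above that of 7.3% of the genes tested, and rounding to 0.1 is large beside 0.6 to 0.9 FPKM.

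Without normal mouse 2 the adjusted p of Ebf1 was 0.0523 (log2 fold change -1.09), and it was 0.0477 without normal mouse 3 (log2 fold change -1.09). Without both mice, an alternative chosen after seeing the data, the log2 fold change of Ebf1 was -0.62 (SE 0.23, adjusted p = 0.0938 from limma). Those 2 mice stood apart by markers of other brain regions. The summed FPKM of the 9 cerebellar markers with a row, of 12 listed, was 54.1, 270, 369.2 and 109.3 in normal mice 1 to 4 and between 39.1 and 46.3 in HFD mice. Gabra6 and Cnpy1, of cerebellar granule cells and of the cerebellar and midbrain region, were each listed at 0 in HFD mouse 1. Of the 7 cerebellar markers tested 4 were lower, beside 15.3% of all genes tested. Among those lower, Cbln3, Fat2 and En2 had means of 0.325, 0.15 and 0.15 FPKM in HFD mice. They were within the filter only through normal mice, so this count is not set against the share of all genes as a test. The summed FPKM of the 7 thalamic markers with a row, of 10 listed, was 62.8, 136.5, 118.9 and 49.6 in normal mice 1 to 4 and between 45.1 and 48.9 in HFD mice. Shox2 was listed at 0 in HFD mouse 4, and 2 of the 6 thalamic markers tested were lower, beside the same 15.3% of all genes. When the mean log2 value of the cerebellar markers entered the model, Ebf1 had a log2 fold change of -0.15 (SE 0.32, adjusted p = 0.819 from limma). With the thalamic markers in their place, a covariate added after seeing the data, it was -0.26 (SE 0.28, adjusted p = 0.592 from limma). Both marker sums were higher in every normal mouse than in any HFD mouse, so these covariates also take up diet difference. Diet and RNA of other regions cannot be told apart in these fits. Over all genes tested, the calls went from 2146 lower and 2480 higher to 1215 and 1528 without normal mice 2 and 3, 388 and 471 with the cerebellar covariate, and 425 and 559 with the thalamic covariate.

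**Figure D2:**
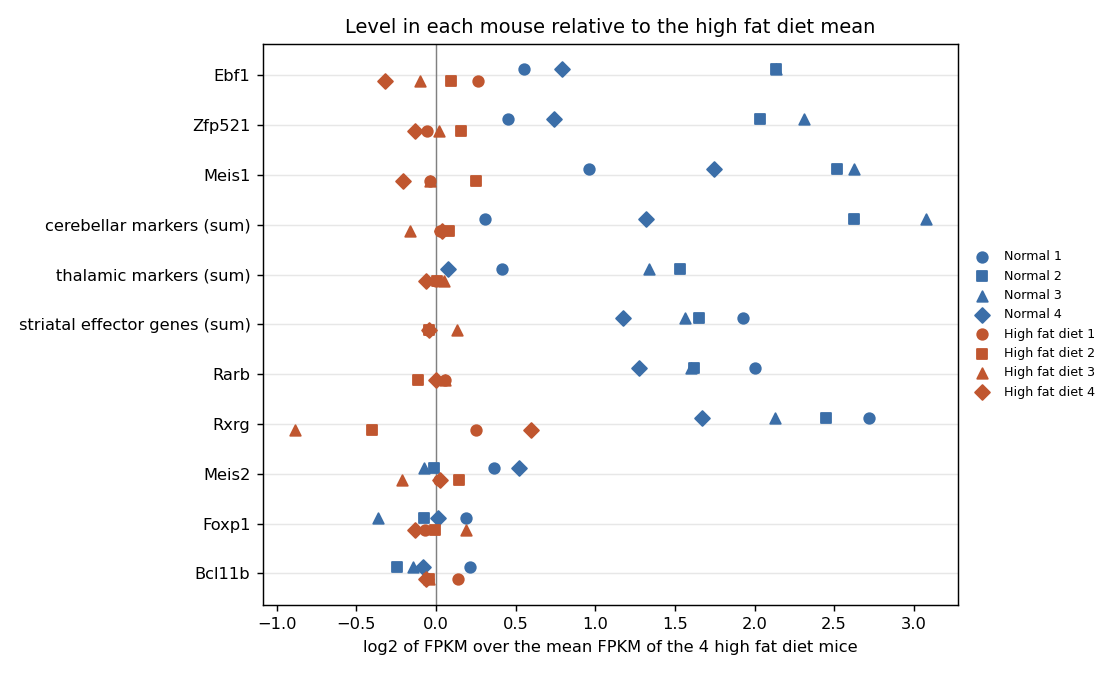
Log2 of the FPKM of each mouse over the mean FPKM of the 4 HFD mice (horizontal axis) for genes and for summed marker lists (rows), with 1 symbol per mouse. Normal mice 2 and 3 are highest for Ebf1, Zfp521, Meis1 and the cerebellar and thalamic markers, whereas normal mouse 1 is highest for the striatal effector genes, Rarb and Rxrg.

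The 3 genes whose profile over the 8 mice was nearest to that of Ebf1 were Zfp521, Cnksr3 and Col18a1. Nearness was the root mean square difference between log2(FPKM + 0.1) values, each gene centred on its own mean, and it was 0.15, 0.16 and 0.18 log2 units, where the values of Ebf1 had a root mean square of 0.83 around their mean. Zfp521, a zinc finger protein, was 2.7, 8.1, 9.8 and 3.3 FPKM in normal mice 1 to 4 and between 1.8 and 2.2 in HFD mice. Cnksr3, a scaffold protein of kinase signaling, was 2.6, 7.3, 7.7 and 2.8 FPKM in normal mice and between 1.3 and 1.6 in HFD mice. Col18a1, a collagen of basement membranes, was 1.5, 4.8, 5.3 and 1.5 FPKM in normal mice and between 1 and 1.2 in HFD mice. In each of these genes normal mice 2 and 3 were highest, and normal mice 1 and 4 lay between them and the HFD mice. That likeness to Ebf1 follows from choosing the nearest profiles.

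Because Ebf1 is known from pericytes, vascular markers were measured beside it. Among all genes tested, 15.3% were lower and 17.7% higher. All 13 vascular markers had a row, and 3 were lower, 0 were higher and 10 did not pass the test. Their summed FPKM was between 140 and 156.5 in normal mice and between 120.7 and 133.1 in HFD mice. The pericyte markers Pdgfrb and Rgs5 had log2 fold changes of -0.051 (adjusted p = 0.728) and -0.27 (adjusted p = 0.0243, both from limma). Within the list Cldn5, a tight junction protein, and Slco1a4, a transporter of the blood-brain barrier, had the lowest log2 fold changes, -0.40 and -0.32, and Cdh5 and Notch3 the highest, -0.0046 and -0.039. The part of vascular cells in the value of Ebf1 was not tested.

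Foxp1 (ENSMUSG00000030067.17) lies on the minus strand of chromosome 6 from 98925338 to 99522721. Its FPKM was 26.1, 21.8, 17.8 and 23.1 in normal mice 1 to 4 and 21.9, 22.8, 26.1 and 20.9 in HFD mice 1 to 4. The same highest value, 26.1, occurred in both diets, and the lowest was that of normal mouse 3. The means were 22.2 ± 3.44 (SD, n = 4) and 22.9 ± 2.25 (SD, n = 4). The log2 fold change was 0.055 (SE 0.11, 95% interval -0.20 to 0.31, adjusted p = 0.732 from limma), which on the linear scale allows from 0.873 to 1.24 times the level of normal mice. Its direction was not stable, with log2 fold changes of -0.047 without normal mouse 3 and -0.0092 without HFD mouse 3. Within 100 kb of the annotated start of Foxp1, 3 genes are annotated and 1 had a row. This gene, RP23-133N21.3 (Gm20696 in GENCODE M21), overlaps Foxp1 on the same strand, so reads in shared sequence cannot be told apart. It was at 0.825 ± 0.171 FPKM in normal mice and 1.38 ± 0.15 in HFD mice, each SD with n = 4 (log2 fold change 0.69, SE 0.18, adjusted p = 0.0173 from limma). These levels are near the lower limit of the filter, which the gene met only through HFD mice.

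Bcl11b (ENSMUSG00000048251.15) lies on the minus strand of chromosome 12 from 107910403 to 108003602, with no other gene annotated within 100 kb of its start. Its FPKM was 22.6, 16.4, 17.6 and 18.4 in normal mice 1 to 4 and 21.4, 18.9, 18.9 and 18.6 in HFD mice 1 to 4. Mouse 1 was highest in each diet, and the HFD mice lay within the range of the normal mice. The means were 18.8 ± 2.7 (SD, n = 4) and 19.5 ± 1.31 (SD, n = 4). The log2 fold change was 0.061 (SE 0.094, 95% interval -0.15 to 0.27, adjusted p = 0.646 from limma), or from 0.901 to 1.21 times the level of normal mice.

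Meis2 (ENSMUSG00000027210.20) lies on the minus strand of chromosome 2 from 115863064 to 116065839. Its FPKM was 39.5, 30.5, 29.2 and 44.1 in normal mice 1 to 4 and 31.1, 34, 26.5 and 31.2 in HFD mice 1 to 4. Normal mice 1 and 4 lay above all HFD mice, and normal mice 2 and 3 lay among them, which is the reverse of Ebf1. The means were 35.8 ± 7.17 (SD, n = 4) and 30.7 ± 3.11 (SD, n = 4). The log2 fold change was -0.21 (SE 0.13, 95% interval -0.50 to 0.091, adjusted p = 0.255 from limma), or from 0.705 to 1.07 times the level of normal mice. Without normal mice 2 and 3 the log2 fold change of Meis2 was -0.45 (SE 0.096, adjusted p = 0.0183 from limma). With the thalamic covariate it was -0.59 (SE 0.12, adjusted p = 0.0263), and with the cerebellar covariate -0.54 (SE 0.17, adjusted p = 0.0881, both from limma). Thus Ebf1 lost and Meis2 gained the threshold when those 2 mice were left out. That fit was chosen after seeing the data and kept normal mice 1 and 4, the highest for Meis2. Its pass for Meis2 came with that choice of mice and is therefore not a test of diet.

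**Figure D3:**
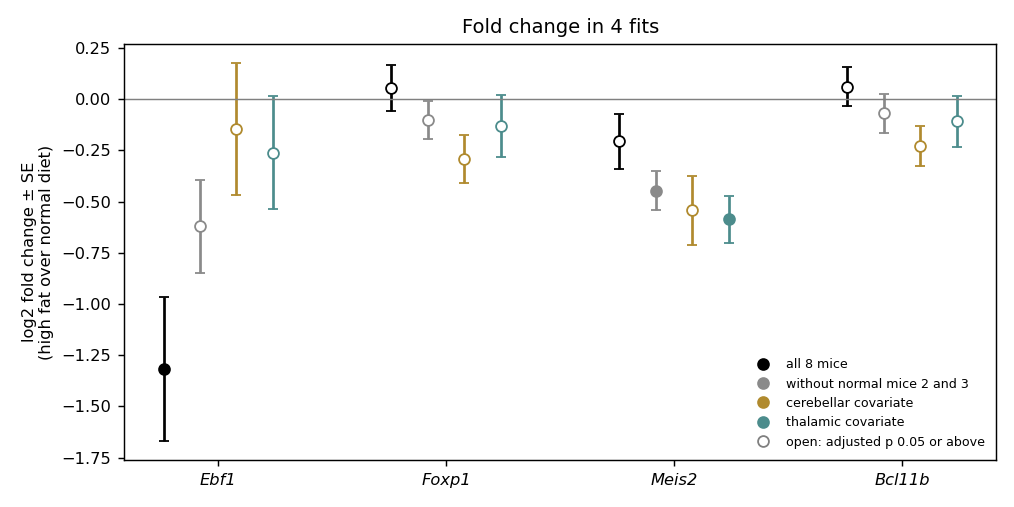
Log2 fold change ± SE (vertical axis) of the 4 factors in 4 fits: all 8 mice, without normal mice 2 and 3, with the cerebellar covariate and with the thalamic covariate. Filled symbols have an adjusted p below 0.05, which Ebf1 reached with all 8 mice (-1.32) and Meis2 without normal mice 2 and 3 (-0.45) and with the thalamic covariate (-0.59).

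By FPKM, a level per transcript length, the order in normal mice was Meis2, Foxp1, Bcl11b and Ebf1, and it was the same in HFD mice. The mean of Meis2 exceeded that of 83.4% of the genes tested, that of Foxp1 74.9% and that of Bcl11b 69.9%. The levels of Foxp1 and Bcl11b overlapped, at 17.8 to 26.1 and 16.4 to 22.6 FPKM in normal mice and at 20.9 to 26.1 and 18.6 to 21.4 in HFD mice. Meis2 lay above Foxp1 without overlap in each diet, at 29.2 to 44.1 and 26.5 to 34 FPKM. Ebf1 lay below all of them.

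To test whether the factors differed in their response, the log2 ratio of each of the 6 pairs was computed per mouse and compared between the diets by exact permutation (two-sided, 70 ways to assign the mice, smallest possible p 0.0286). The log2 ratio of Foxp1 to Ebf1 rose from 3.40 ± 1.01 (SD, n = 4) to 4.77 ± 0.255 (SD, n = 4), and that of Ebf1 to Bcl11b fell from -3.16 ± 0.979 to -4.53 ± 0.156, each with exact p = 0.0286 and adjusted p = 0.0857 over the 6 pairs. The ratio of Ebf1 to Meis2 differed by -1.11 (exact p = 0.114, adjusted p = 0.206). The 3 pairs among Foxp1, Meis2 and Bcl11b had differences of 0.26, -0.27 and -0.0062, with exact p values of 0.171, 0.143 and 0.971. No pair passed the adjusted threshold, and with Ebf1 in 3 of the 6 pairs the smallest adjusted p that a difference of Ebf1 alone could reach is 0.0571, so this design could not pass for it.

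The striatal effector genes encode the receptors, neuropeptides and signaling proteins of mature striatal projection neurons. Of 20 listed, 18 had a row, and 18 were lower in HFD mice and 0 higher, beside 15.3% and 17.7% of all genes tested. The median log2 fold change of the 18 was -1.67. Their decrease was already known when the list was written. Adora2a, the adenosine receptor of the indirect pathway, and Drd2, a dopamine receptor, had the lowest log2 fold changes, -4.07 and -3.67. Each had a mean of 0.45 FPKM in HFD mice and was within the filter only through normal mice. At that level the rounding to 0.1 and the added constant affect the size of the change. Pdyn, the precursor of dynorphin, and Gnal, a G protein subunit, had the highest, -0.57 and -0.58. Their summed FPKM was 697.9, 577.9, 543.3 and 413.7 in normal mice 1 to 4 and between 177 and 201.2 in HFD mice. Here normal mouse 1 was highest and normal mouse 4 lowest, an order unlike those of Ebf1 and Meis2. Without normal mice 2 and 3, 18 of the 18 were lower.

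The per-mouse log2 value of each factor was then set against the mean log2 value of the 18 effector genes. For Foxp1 the difference rose from 0.0747 ± 0.312 in normal mice to 2.01 ± 0.145 in HFD mice (SD, n = 4 per diet), a shift of 1.94. The shift was 1.94 for Bcl11b and 1.68 for Meis2, and in these 3 factors the values of the diets did not overlap. For Ebf1 the shift was 0.56, normal mice varied from -4.49 to -2.57, and with an added constant of 1 in place of 0.1 it was 0.77. Because the effector genes were chosen with their decrease known, these shifts are a description and no test is given.

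**Figure D4:**
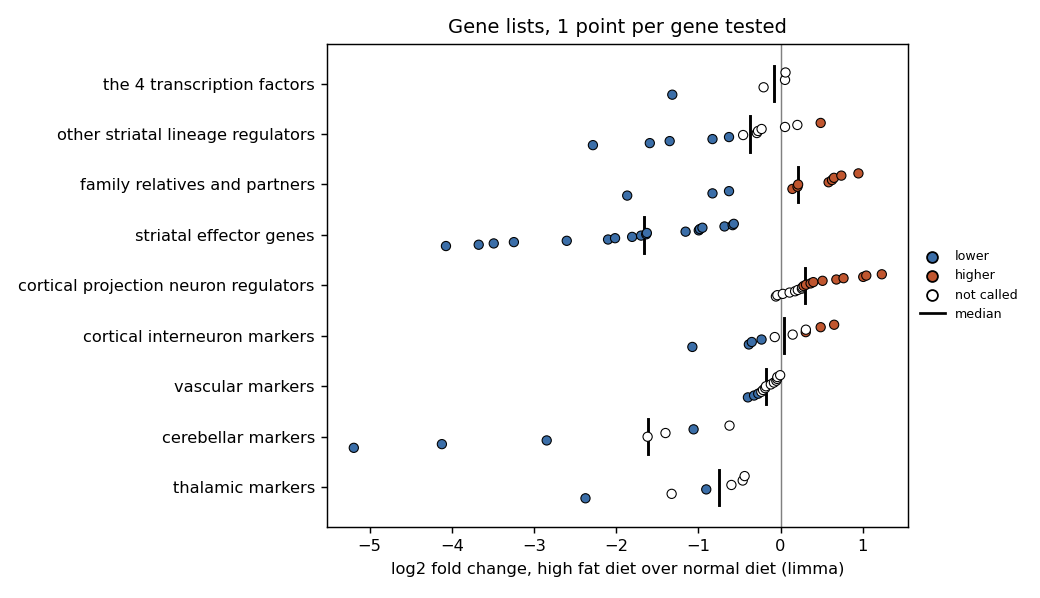
Log2 fold change from limma (horizontal axis) of each gene tested, by list (rows), in blue where lower and orange where higher at an adjusted p below 0.05, in white otherwise, and with a bar at the median of each list. The 18 striatal effector genes all lie below 0, whereas of the 4 transcription factors only Ebf1 is blue.

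Other regulators of the striatal lineage were examined from a list of 23, of which 12 had a row. In HFD mice 5 were lower, 1 was higher and 6 did not pass the test, with a median log2 fold change of -0.37. The shares among all genes tested were 15.3% lower and 17.7% higher. Rarb, a retinoic acid receptor of striatal neurons, was 10.4, 8, 7.9 and 6.3 FPKM in normal mice 1 to 4 and between 2.4 and 2.7 in HFD mice (log2 fold change -1.59, SE 0.13, adjusted p = 0.000193 from limma). Rxrg, a retinoid X receptor that pairs with Rarb, was 12.2, 10.1, 8.1 and 5.9 FPKM in normal mice and 2.2, 1.4, 1 and 2.8 in HFD mice (log2 fold change -2.28, SE 0.31, adjusted p = 0.0012 from limma). In these receptors normal mouse 1 was highest and normal mouse 4 lowest, as in the summed effector genes.

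Rarb and Rxrg had adjusted p values below 0.05 in the fits without normal mice 2 and 3 and with either covariate, with log2 fold changes from -1.81 to -1.53 and from -2.44 to -2.14. Zfp521 had a log2 fold change of -1.35 (adjusted p = 0.0208), which was -0.58 (adjusted p = 0.0266) without those mice and -0.21 (adjusted p = 0.658) with the thalamic covariate, all from limma. Pbx3, a TALE homeodomain partner of Meis proteins, was 4.7, 4.9, 5.4 and 6.1 FPKM in normal mice and between 2.2 and 3.3 in HFD mice (log2 fold change -0.83, adjusted p = 0.0028 from limma). Foxp2, a forkhead relative of Foxp1, was 5.2, 6.5, 5.7 and 4.2 FPKM in normal mice and 2.6, 4, 4.1 and 3.2 in HFD mice (log2 fold change -0.63, adjusted p = 0.0194 from limma). The difference of Foxp2 was -0.44 (adjusted p = 0.140) without normal mice 2 and 3.

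The higher regulator was Lhx6, a factor of cortical interneurons from the medial ganglionic eminence, at 4.1, 3.4, 3.5 and 4.5 FPKM in normal mice and between 5.1 and 5.9 in HFD mice (log2 fold change 0.49, adjusted p = 0.00668 from limma). The Dlx genes, homeobox genes of the ganglionic eminences, did not pass the test, with log2 fold changes of 0.055 for Dlx1 (adjusted p = 0.877), -0.29 for Dlx5 (adjusted p = 0.215), -0.46 for Dlx6 (adjusted p = 0.0578) and -0.23 for the noncoding Dlx6os1 (adjusted p = 0.343, all from limma). Dlx1 was 5.6 FPKM and Dlx6os1 7.6 FPKM in normal mouse 4, above the other 7 mice. Ikzf2 (0.20) and Tshz1 (-0.27) did not pass either. Like Meis2, Dlx6os1 and Tshz1 passed without normal mice 2 and 3, at -0.56 (adjusted p = 0.0201) and -0.45 (adjusted p = 0.0492), and with the thalamic covariate, at -0.79 (adjusted p = 0.0134) and -0.59 (adjusted p = 0.0419, all from limma). With the cerebellar covariate their adjusted p values were 0.136 and 0.231. Normal mice 2 and 3 were the lowest normal mice for both genes, so leaving them out, a choice made after seeing the data, widens the decrease by selection. Without normal mice 2 and 3, 6 of the 12 regulators were lower and 1 higher, where Dlx6os1 and Tshz1 had entered and Foxp2 had dropped out, and with the cerebellar covariate 2 were lower and 0 higher. Without normal mouse 2 alone 3 were lower, since Foxp2 and Zfp521 then had adjusted p values of 0.0539 and 0.0567 (limma).

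**Figure D5:**
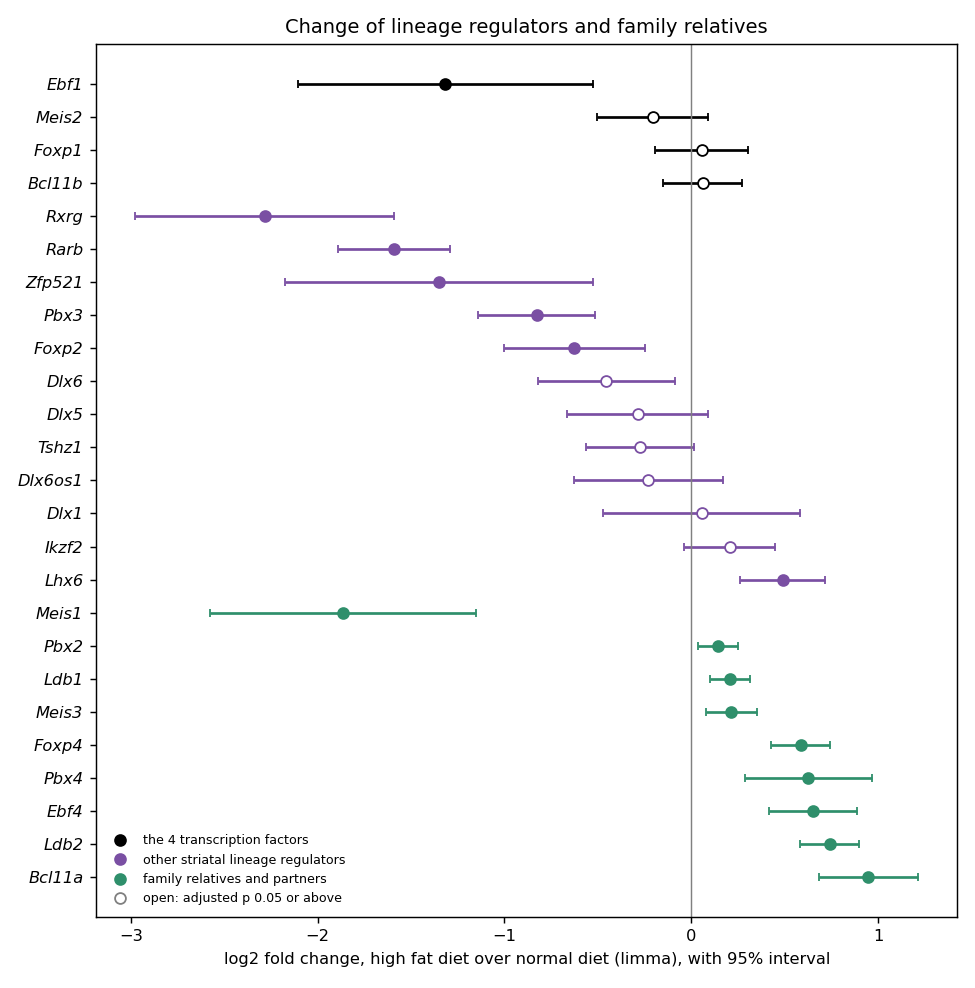
Log2 fold change from limma with its 95% interval (horizontal axis) for the 4 factors, other striatal lineage regulators and family relatives and partners, 1 row per gene. Open symbols have an adjusted p of 0.05 or above, Foxp2 and Pbx3 of the relatives are drawn with the regulators, and the lowest values are those of Rxrg (-2.28) and Meis1 (-1.87).

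Close relatives and binding partners of the factors had a row for 11 of 19 genes listed, and in HFD mice 3 were lower (Meis1, Pbx3 and Foxp2) and 8 higher. Among all genes tested, 15.3% were lower and 17.7% higher. The median log2 fold change of the relatives and partners was 0.21. Without normal mice 2 and 3, 2 were lower and 5 higher, and with the cerebellar covariate 0 were lower and 3 higher, in fits that also called fewer of all genes (1215 lower and 1528 higher, and 388 lower and 471 higher, of 13982). Bcl11a, a zinc finger relative of Bcl11b, was 15.1, 12.1, 11.2 and 17.2 FPKM in normal mice and between 25.9 and 27.4 in HFD mice (log2 fold change 0.95, SE 0.12, adjusted p = 0.00096 from limma). Ldb2, a cofactor of LIM homeodomain proteins such as Isl1, was between 14.5 and 18.2 FPKM in normal mice and between 26.6 and 28.6 in HFD mice (log2 fold change 0.74, adjusted p = 0.000349 from limma). Foxp4 and Ebf4 had log2 fold changes of 0.58 and 0.65 (adjusted p = 0.000855 and 0.00235 from limma). Bcl11a, Ldb2 and Foxp4 had adjusted p values below 0.05 in the fits without normal mice 2 and 3 and with either covariate.

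Meis1, a relative of Meis2, was 1.8, 5.3, 5.7 and 3.1 FPKM in normal mice 1 to 4 and between 0.8 and 1.1 in HFD mice (log2 fold change -1.87, SE 0.32, adjusted p = 0.00297 from limma). Its mean in HFD mice was 0.925 FPKM, so like Ebf1 it was within the filter only through normal mice. Normal mice 2 and 3 were highest, as for Ebf1, and the log2 fold change was -1.27 (adjusted p = 0.0125 from limma) without them. It was -0.70 (adjusted p = 0.0794) with the cerebellar covariate and -1.04 (adjusted p = 0.087, both from limma) with the thalamic covariate. The remaining partners were also higher, with log2 fold changes of 0.63 for Pbx4, 0.21 for Meis3, 0.21 for Ldb1 and 0.14 for Pbx2.

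The log2 ratio of each factor to a relative was compared per mouse for 6 pairs, listed with earlier results of these data known. The ratio of Bcl11b to Bcl11a fell from 0.44 ± 0.245 (SD, n = 4) to -0.45 ± 0.0894 (SD, n = 4), and that of Foxp1 to Foxp4 from 2.40 ± 0.214 to 1.87 ± 0.0625. The ratio of Foxp1 to Foxp2 rose by 0.68 and that of Meis2 to Meis1 by 1.66. The ratio of Ebf1 to Ebf4 changed by -1.97. Each of these 5 had exact p = 0.0286, the smallest that the exact test can give, and adjusted p = 0.0343 over the 6 pairs. Because the relatives were listed with earlier results known, these values are a description of the ratios. The ratio of Meis2 to Meis3 changed by -0.42 (exact p = 0.0571, adjusted p = 0.0571).

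The cortical label was checked against regulators of cortical projection neurons, a cell class in which Foxp1 and Bcl11b are also expressed. All 18 had a row in the 8 mice, and in HFD mice 0 were lower, 10 were higher and 8 did not pass the test. The shares among all genes tested were 15.3% lower and 17.7% higher. The median log2 fold change of the list was 0.30. The 10 higher became 8 without normal mice 2 and 3, 2 with the cerebellar covariate, 3 with the thalamic covariate and 6 without HFD mouse 2 or HFD mouse 3 alone. Fezf2, which acts ahead of Bcl11b in subcerebral projection neurons, had the highest log2 fold change, 1.23, followed by Tbr1, a factor of corticothalamic neurons, with 1.04. Fezf2 was 9.6, 6.9, 5.3 and 9.2 FPKM in normal mice and between 15.7 and 20.4 in HFD mice. The lowest were Bcl6 (-0.056) and Cux1 (-0.039), which did not pass the test. The summed FPKM of the list was between 197.1 and 242.3 in normal mice and between 271.1 and 309.6 in HFD mice. The part of these cells in the values of Foxp1 and Bcl11b was not tested.

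Among 10 cortical interneuron markers, 4 were lower, 3 were higher and 3 did not pass the test. Of all genes tested, 15.3% were lower and 17.7% higher. The summed FPKM of these markers was between 553.2 and 578 in normal mice and between 478.1 and 549.3 in HFD mice. With the cerebellar covariate 0 were lower and 0 higher, with the thalamic covariate 1 was lower and 0 were higher, and without normal mice 2 and 3 the counts were 3 and 2. The lowest were Pvalb (-1.07) and Adarb2 (-0.39), and the highest were Vip (0.65) and Lhx6 (0.49). Gad2 (-0.35) and Gad1 (-0.23) were also among those lower, and Sox6 (0.31) among those higher. Which cells the changes of these markers came from was not tested. Pvalb, a calcium-binding protein that is also abundant in the cerebellum, was 50.1, 140.3, 145.8 and 60.5 FPKM in normal mice 1 to 4, again highest in normal mice 2 and 3. Of 6 cholinergic markers listed for the striatal neurons that Isl1 marks, 0 had a row, and they were not analysed here. Of the 4 genes annotated within 100 kb of the Ebf1 start, 1 had a row, Rnf145, at 28.6 ± 0.862 FPKM in normal mice and 28.5 ± 0.714 in HFD mice, each SD with n = 4 (log2 fold change -0.0074, adjusted p = 0.908 from limma).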

How the data were processed

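RNA was sequenced from the cortexes of 4 mice per diet, each as its own library. The deposited table holds FPKM rounded to 0.1. To make it, the authors used FastQC for quality, Trimmomatic for trimming, STAR for alignment to mm10 and Cuffnorm with GENCODE M17 (GRCm38.p6). Tool versions were not given in the sources used here. Sums of FPKM per mouse were between 562431 and 639142, the depth is unknown, and use of strand in counting is not stated. The filter on low values (mean FPKM 1, no 0) follows the paper, and 14 of the 13996 genes lay outside that filter here.

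The diets were compared on log2(FPKM + 0.1) by limma 3.58.1 (R 4.3.3), allowing a trend of variance with level. The paper used a per-gene test on FPKM in place of limma. The added constant understates fold changes of genes with low expression. Log2 ratios were compared by exact permutation with Python 3.11.15. Coordinates come from GENCODE M21 on GRCm38. The replicate numbers do not pair the mice, since deviations from the diet means of same-numbered mice correlated at -0.11 to -0.03 over 13982 genes. When values for 13982 genes were simulated with known increases, limma called 86 of 100 genes changed 2-fold, 96 of 100 changed 3-fold and 9 unchanged genes. Noise was drawn independently for each gene and mouse. Variation that many genes share within a mouse, as in normal mice 2 and 3, was therefore not covered by these counts.

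The members and all 9 gene lists were chosen with earlier results of these data known. The results of 2 genes of the lists are not reported here, and the lists are counted without them. Tests of the factors against the effector genes are not given, since that list was chosen with its decrease known. Genes named were the members, relatives and regulators, and the 2 lowest and 2 highest of each other list within the filter. Also named were the other changed interneuron markers, measured neighbours within 100 kb, the 3 nearest profiles of a changed member and the pericyte markers Pdgfrb and Rgs5. For the cerebellar and thalamic lists, the counts, sums and genes listed at 0 are given. The list of cerebellar markers used as a covariate had 7 genes within the filter and that of thalamic markers 6. Alternatives were other added constants (1 and 0.05), no filter, a mean FPKM of at least 5, quantile normalization, rescaling by median ratios, the replicate block, a model without the variance trend, each mouse left out, a cerebellar covariate and 2 fits added after seeing the data.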

Additional observations from a re-analysis of the deposited data

Results flagged for a closer look

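In 50 groups of 4 mice, the highest or lowest mouse of a diet was examined by Dixon's criterion, which chance passes in about 1 of 20 groups, and 2 were marked. Bcl11b was 21.4 FPKM in HFD mouse 1, against 18.9 or less in the other 3 mice of that diet. Ikzf2 was 1.4 FPKM in normal mouse 4 and 1.6 in each of the other normal mice, a gap of 2 rounding steps.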

How the results depend on the processing

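The decrease of Ebf1 passed the threshold with other added constants, without a filter, with median-ratio rescaling or quantile normalization, without the variance trend and with the replicate block, and its log2 fold change was between -1.59 and -1.09 with each mouse left out. With the cerebellar covariate, the thalamic covariate or without normal mice 2 and 3 it was -0.15, -0.26 and -0.62 and did not pass. The count of factors lower was 0 with the cerebellar covariate and 0 with a mean FPKM of at least 5, a filter that removes Ebf1, and 0 or 1 with each mouse left out, the 0 without normal mouse 2. It was 1 with the thalamic covariate and 1 without normal mice 2 and 3, fits added after seeing the data. In both the factor was Meis2, at -0.59 and -0.45. The count of factors higher was 0 in all fits. Foxp1 turned to -0.29, -0.13 and -0.10 and Bcl11b to -0.23, -0.11 and -0.070 with the cerebellar covariate, with the thalamic covariate and without normal mice 2 and 3, short of the threshold. The cause was not tested. With the replicate number as a block, 1 factor was lower and 0 were higher, Ebf1 was at -1.32 (SE 0.32, adjusted p = 0.033 from limma), and in the pairing check no mouse correlated best with the mouse of its own number.

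With each mouse left out, the log2 fold change was between -0.047 and 0.14 for Foxp1, -0.30 and -0.099 for Meis2, and 0.00019 and 0.15 for Bcl11b. Foxp1 was at -0.047 without normal mouse 3 and -0.0092 without HFD mouse 3. Differences in log2 ratio were then between 1.04 and 1.72 for Foxp1 to Ebf1, 0.13 and 0.33 for Foxp1 to Meis2, -0.083 and 0.061 for Foxp1 to Bcl11b, -1.43 and -0.79 for Ebf1 to Meis2, -1.74 and -1.09 for Ebf1 to Bcl11b, and -0.33 and -0.15 for Meis2 to Bcl11b. The ratio of Foxp1 to Bcl11b turned positive, at 0.050 and 0.023, when normal mouse 2 or 4 was omitted, and at 0.061 and 0.016 when HFD mouse 1 or 4 was. Against the effector genes they were between 1.85 and 2.09 for Foxp1, 0.18 and 0.82 for Ebf1, 1.58 and 1.91 for Meis2, and 1.85 and 2.07 for Bcl11b, and with an added constant of 1 that of Ebf1 was 0.77. Against relatives they were between 0.55 and 0.82 for Foxp1 to Foxp2, -0.62 and -0.45 for Foxp1 to Foxp4, 1.35 and 2.04 for Meis2 to Meis1, -0.53 and -0.31 for Meis2 to Meis3, -1.001 and -0.82 for Bcl11b to Bcl11a, and -2.27 and -1.72 for Ebf1 to Ebf4. With 7 mice the exact test cannot go below 0.0571, so it cannot pass the threshold. The rounding to 0.1 limits genes near 1 FPKM, Ebf1 and Meis1 in HFD mice among them.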
